A study of Mus musculus with 10 samples.

Results

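Cultured mast cells left in interleukin 3 (IL-3) were compared with those given stem cell factor (SCF) and transforming growth factor beta (TGF-β) together. The comparison was between 6 of the 10 libraries of the series. Of these, 4 came from cells stimulated with both factors, called the combination below (2 at 1 ng/mL and 2 at 10 ng/mL of TGF-β), and 2 came from cells left in IL-3. The libraries were chosen by their labels. All cells were bone marrow-derived mast cells (BMMCs), grown from the marrow of wild-type C57BL/6 mice of 6 to 8 weeks and held in IL-3 for 6 to 8 weeks before use. The stimulated cells received the factors for 72 h. The other 4 libraries entered the same fit, where they bear on the spread and on which genes were tested, and were also compared with the combination. They were 2 of SCF alone (100 ng/mL, 72 h) and 1 each of TGF-β alone at 1 and at 10 ng/mL (72 h). The labels give no SCF dose for the combination, no time for the IL-3 cells, and IL-3 at 5 ng/mL in 1 place and 10 ng/mL in another. They do not say whether replicates came from separate cultures or animals, or whether IL-3 stayed in the medium during stimulation. The p-values therefore rest on the spread among these libraries alone, which may be technical.

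Mast cells are granulated cells of the tissues that carry the high-affinity IgE receptor and release amines, proteases and lipid mediators. Mucosal mast cells of the mouse store the chymases mMCP-1 and mMCP-2, encoded by Mcpt1 and Mcpt2, and bear the integrin αE chain, while connective tissue mast cells store mMCP-4, tryptases, carboxypeptidase A3 and heparin. SCF acts through the receptor kinase KIT and its ERK and PI3-kinase branches. TGF-β acts through receptor kinases that phosphorylate SMAD transcription factors, and it is known to drive mucosal protease genes in cultured mouse mast cells.

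Counts assigned to genes ran between 1539696 and 2323916 in the 6 libraries, so that 3 counts, used here as the floor for a gene at 0, stood for 1.29 to 1.95 counts per 1000000 (CPM). Replicates of a group correlated at 0.955 to 0.968 (Pearson, log CPM, across genes), and the IL-3 pair was the least alike. The summed level of the 30 mitosis genes was 2437 to 3072 CPM in the 4 libraries of SCF with TGF-β, against 293 and 761 CPM in the IL-3 libraries. The mast cell genes Kit, Fcer1a, Ms4a2, Cpa3, Cma1 and Tpsb2 were abundant on both sides. Their lowest value in any of the 6 libraries was 1345 CPM, for Ms4a2. The mast cell markers Hdc, Gata2 and Il1rl1 were not in that set and are given below. Hdc was scarcer, at 22.6 to 35.3 CPM with SCF and TGF-β, against 98.5 and 110 CPM in IL-3. These are bulk samples, in which fewer cells of a type and less RNA per cell cannot be told apart.

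With SCF and TGF-β, 2499 of the 11247 genes tested differed from IL-3 (22.2%), of which 1242 were higher (11.0%) and 1257 were lower (11.2%), at a Benjamini-Hochberg adjusted p under 0.05 in edgeR's quasi-likelihood test over the mean of both doses. At least 2-fold changes numbered 631 higher and 634 lower, and at least 4-fold changes 256 higher and 205 lower. The median log2 change over all genes tested was -0.02. The count depended on the IL-3 pair: without IL-3 replicate 2 it was 1308, and without IL-3 replicate 1 it was 1711. A fit of the 6 libraries alone called 2462 genes. Without regard to the test, 21.9% of genes had all 4 libraries of SCF with TGF-β above both IL-3 libraries, and 22.4% had all 4 below.

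**Figure D1:**
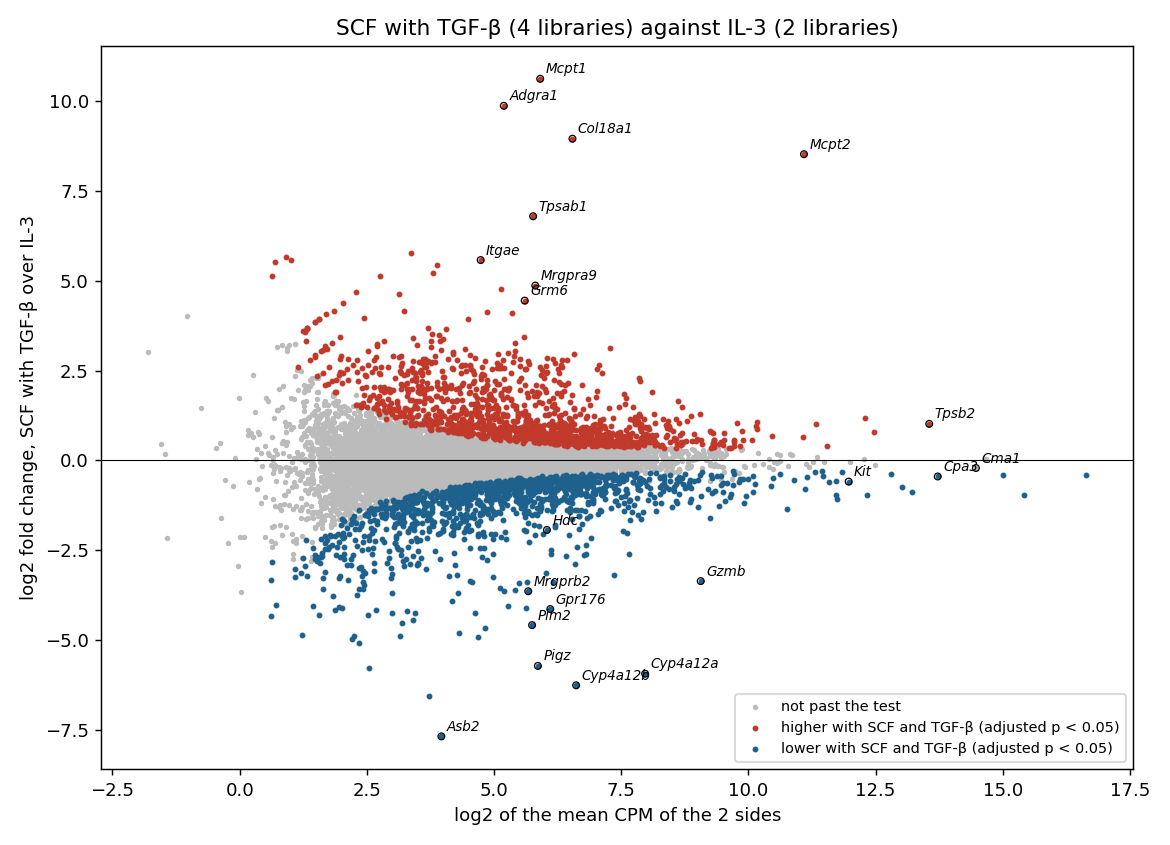
Each point is 1 of the 11247 genes tested, placed by the log2 of the mean CPM of SCF with TGF-β and IL-3 (x axis) and by the log2 fold change of SCF with TGF-β over IL-3 (y axis); 1242 red genes were higher and 1257 blue genes lower at an adjusted p under 0.05. Mcpt1 and Adgra1, at 0 counts in IL-3, sit at fitted values that depend on the prior count, and Mcpt2 stands apart by being both abundant and far above 0.

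The granule protease genes of the mucosal type were at the head of the rises. Mcpt1 and Mcpt2 lie close together in the chymase cluster of chromosome 14 (Mcpt1 at 56017971 to 56020384 and Mcpt2 at 56042041 to 56044642, both on the plus strand of GRCm38), and Gzmb, which encodes granzyme B, lies further along the same cluster at 56258838 to 56262260 on the minus strand. Mcpt1 and Gzmb moved in opposite directions, and their promoters are shown for that reason, with that of Adgra1 on chromosome 7, another gene of large rise with no count in IL-3. Sequences are from RefSeq (GRCm38.p6), each with 250 bases before and 50 after RefSeq's start of the gene, 5′ to 3′ on the gene's strand. RefSeq's start is the start meant below, and it can differ from the end of the span given above. The Gzmb window, 56262285 to 56262584, lies wholly before the span given for Gzmb, which starts at 56262260 on the minus strand. Of the 30 genes of largest rise and fall, 19 had a promoter of this length in RefSeq. Capitals mark the SMAD half-site CAGAC (or GTCTG) and the GATA core GATAA (or TTATC).
Mcpt1, chr14:56017714-56018013, plus strand: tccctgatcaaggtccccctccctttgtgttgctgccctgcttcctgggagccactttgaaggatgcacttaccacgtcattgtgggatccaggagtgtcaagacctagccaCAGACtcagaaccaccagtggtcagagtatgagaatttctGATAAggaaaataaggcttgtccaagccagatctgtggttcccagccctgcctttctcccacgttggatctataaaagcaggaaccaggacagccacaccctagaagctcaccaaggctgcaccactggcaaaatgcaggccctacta
Gzmb, chr14:56262285-56262584, minus strand: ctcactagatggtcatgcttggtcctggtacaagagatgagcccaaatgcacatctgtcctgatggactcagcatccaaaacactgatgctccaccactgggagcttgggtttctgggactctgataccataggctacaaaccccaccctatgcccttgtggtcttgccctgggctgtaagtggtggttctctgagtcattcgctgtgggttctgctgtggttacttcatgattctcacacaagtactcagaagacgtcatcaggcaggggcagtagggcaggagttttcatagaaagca
Adgra1, chr7:139833924-139834223, plus strand: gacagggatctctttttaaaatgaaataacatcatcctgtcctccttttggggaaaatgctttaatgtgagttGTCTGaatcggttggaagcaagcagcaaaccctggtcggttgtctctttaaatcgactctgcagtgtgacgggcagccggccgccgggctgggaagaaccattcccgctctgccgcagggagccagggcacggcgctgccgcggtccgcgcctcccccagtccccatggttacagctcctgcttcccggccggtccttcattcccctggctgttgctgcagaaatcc
The Mcpt1 window held 1 SMAD half-site, 138 bases before the start, and 1 GATA core, 98 bases before it. The Adgra1 window held 1 SMAD half-site, 177 bases before the start, and the Gzmb window held neither motif. A SMAD half-site occurs in 49.6% and a GATA core in 25.4% of the 32851 mouse promoters of the same length, on either strand, so these matches describe the windows and nothing more. The AP-1 motif TGANTCA, present in 7.81% of the promoters, occurred once in the Gzmb window, 58 bases before the start.

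Mcpt1 had 90.1 and 63.5 CPM in the combination at 1 ng/mL and 212 and 115 CPM in the combination at 10 ng/mL, against 0 counts in both IL-3 libraries. The groups did not overlap, and Mcpt1 was over the 4 libraries at least 138-fold higher than 3 counts in the IL-3 group (adjusted p = 6.29e-08). Mcpt2 had 3779, 2874, 6719 and 4050 CPM in the same order of SCF with TGF-β libraries, against 9.85 and 13.3 CPM in IL-3. This was a log2 change of 8.53 ± 0.28 (SE, adjusted p = 3.79e-12), the smallest p of any gene. Mcpt9, another chymase gene of the mucosal type, had 0.543 to 2.68 CPM with SCF and TGF-β against 0 counts in IL-3, too few to test. Chymase genes are near copies of each other, and reads shared between them may be split or lost in the authors' counting. The combined list of mucosal markers had 4 tested members of 5, of which Mcpt1, Mcpt2 and Itgae rose and Itgb7 fell, with a median log2 change of 7.06 beside -0.02 for all genes.

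Itgae and Itgb7 encode the αE and β7 chains of the integrin that binds E-cadherin. They went opposite ways. Itgae had 28.2, 26.7, 114 and 40.7 CPM with SCF and TGF-β, against 0 and 2.10 CPM in IL-3, a pooled count ratio of 60.6 (95% counting interval 20.6 to 295; adjusted p = 1.25e-05). The IL-3 side rests on 3 counts, and the fitted log2 change of 5.58 was 9.38 without IL-3 replicate 2 and 4.42 without IL-3 replicate 1, past the test in both. Itgb7 had 346, 328, 375 and 371 CPM with SCF and TGF-β, against 625 and 800 CPM in IL-3. It fell by 1.00 ± 0.12 on the log2 scale (adjusted p = 9.08e-06). All 4 Itgb7 values were below both IL-3 values.

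The rest of the granule protease genes were mixed. Tpsab1, one of the tryptase genes, had 95.6, 104, 121 and 112 CPM with SCF and TGF-β, against 0.518 and 1.40 CPM in IL-3, a ratio of 121 (95% counting interval 41.2 to 587; adjusted p = 4.14e-09). Its fitted log2 change of 6.80 was 7.52 without IL-3 replicate 2 and 6.20 without IL-3 replicate 1. Tpsb2, the other main tryptase gene, had 17880, 14687, 17039 and 14820 CPM with SCF and TGF-β, all above the 8416 and 7488 CPM of IL-3 (log2 change 1.02 ± 0.12, adjusted p = 7.17e-06). Tpsg1, a membrane-anchored tryptase, had 987 to 1047 CPM against 591 and 767 CPM in IL-3 (log2 change 0.57 ± 0.13, adjusted p = 0.00345, but 0.0847 without IL-3 replicate 1). Reads of Tpsab1 and Tpsb2 may be shared between the 2 genes.

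Among the connective tissue chymases, Mcpt4 had 22.7, 18.4, 13.4 and 26.6 CPM with SCF and TGF-β, against 1.55 and 2.81 CPM in IL-3 (log2 change 3.23 ± 0.52, adjusted p = 0.000227). Cma1, which encodes mMCP-5, had 23654, 18739, 23232 and 18594 CPM with SCF and TGF-β, against 25335 and 23433 CPM in IL-3. These ranges overlap, and the difference did not pass (log2 change -0.21 ± 0.12, adjusted p = 0.226). Mcpt8, a basophil-type protease, had 11.2 to 25.0 CPM, against 0.518 and 1.40 CPM in IL-3 (ratio 19.0, 95% counting interval 6.35 to 93.1; adjusted p = 0.000186). Its fitted log2 change of 4.17 was 4.89 without IL-3 replicate 2 and 3.57 without IL-3 replicate 1. Ctsg, encoding cathepsin G, had 23.2 to 29.1 CPM, against 26.4 and 16.1 CPM in IL-3, and did not pass (adjusted p = 0.440).

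Granzyme B and carboxypeptidase A3 were lower. Gzmb had 149 and 172 CPM in the combination at 1 ng/mL and 43.4 and 67.3 CPM at 10 ng/mL, against 1193 and 730 CPM in IL-3 (log2 change -3.36 ± 0.17, adjusted p = 1.26e-09). Cpa3 had 13730, 11399, 10601 and 10102 CPM with SCF and TGF-β, against 15870 and 15241 CPM in IL-3 (log2 change -0.45 ± 0.10, adjusted p = 0.00304). Both genes were below both IL-3 libraries in all 4 libraries. The fall of Cpa3 was small beside that of Gzmb, and its transcript stayed among the abundant ones of the cell.

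**Figure D2:**
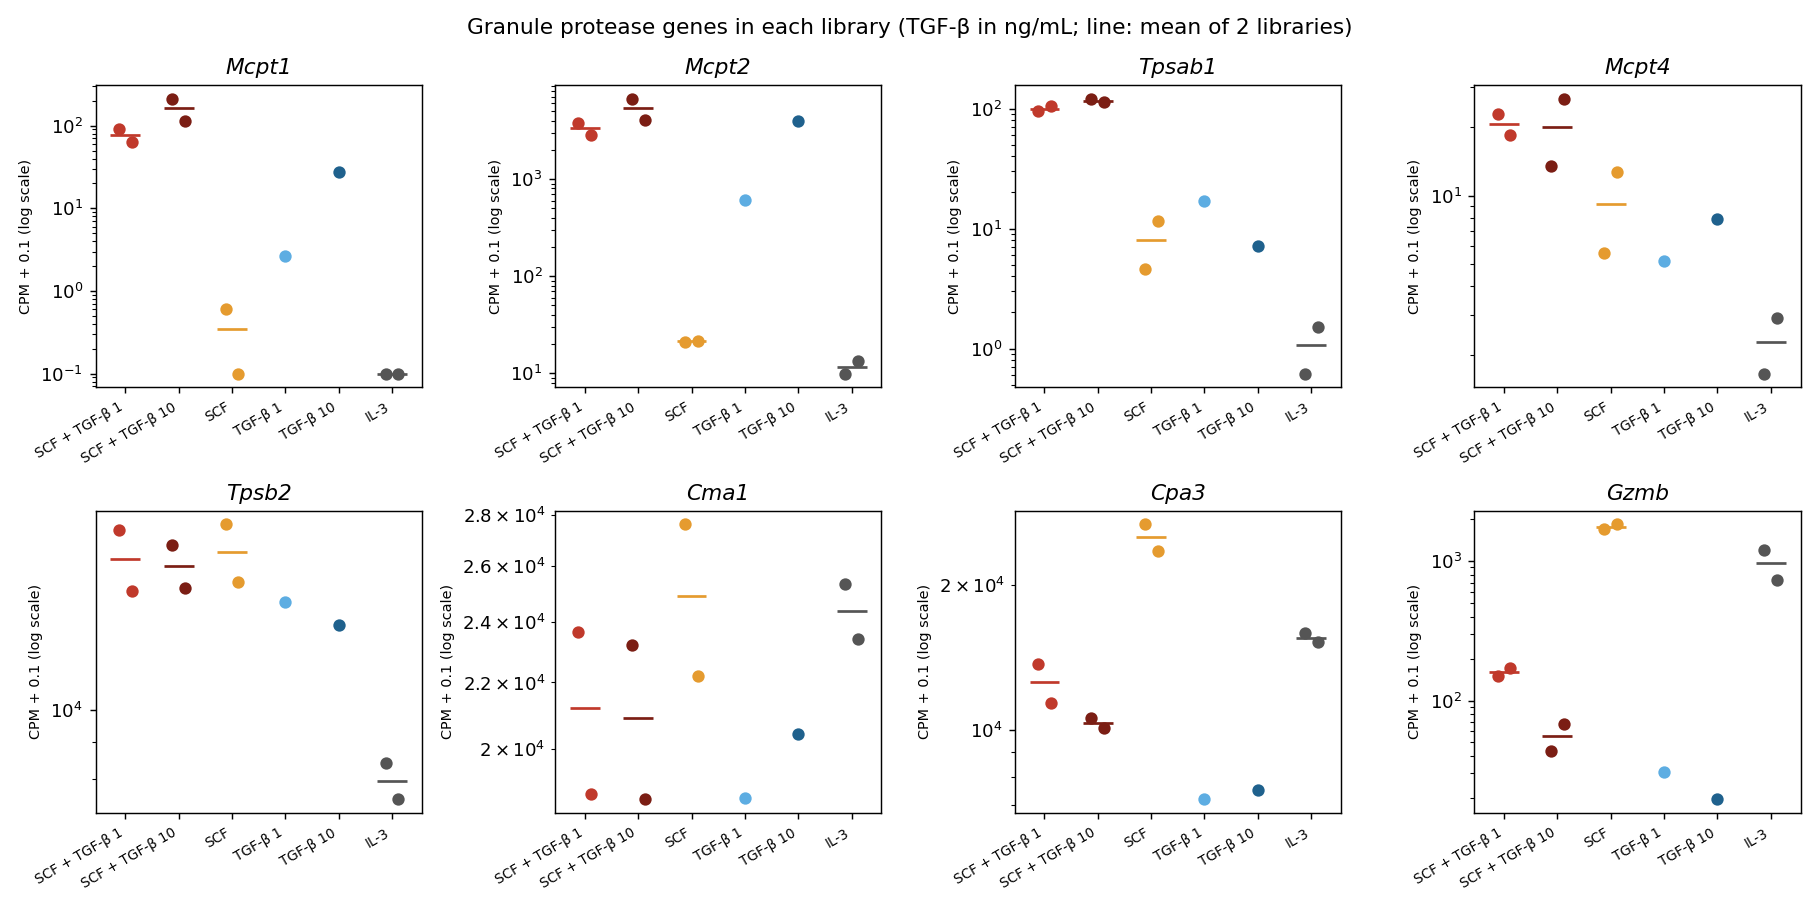
Points are single libraries and lines the mean of a group's 2 libraries, as CPM + 0.1 on a log axis, for SCF with 1 and 10 ng/mL TGF-β, SCF alone, TGF-β alone at 1 and 10 ng/mL, and IL-3, each panel with its own scale. Mcpt1 and Tpsab1 are highest in the 4 libraries of SCF with TGF-β, Tpsb2 is lowest in IL-3, and Gzmb is between 19.4 and 172 CPM wherever TGF-β was added, below the 1693 and 1832 CPM of SCF alone.

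The same fit tested SCF with TGF-β against SCF alone and against TGF-β alone. Against SCF alone 1042 genes differed (9.26%), 441 of them higher (3.92%) and 601 lower (5.34%). Against TGF-β alone, with 1 library a dose, 2780 genes differed (24.7%), 1500 higher (13.3%) and 1280 lower (11.4%). These counts too lean on single libraries: the first was 516 without SCF replicate 1 and 617 without SCF replicate 2, and the second was 1278 without the library of 1 ng/mL TGF-β alone and 1802 without that of 10 ng/mL. Leaving out a library of TGF-β alone also removes its dose, so both doses of the combination were then compared with the other dose only. The changes from IL-3 given below for the combination, for SCF and for TGF-β share the same 2 IL-3 libraries. Every list count against IL-3 below is to be read beside 11.0% of all genes higher and 11.2% lower. List counts against SCF alone are to be read beside 3.92% higher and 5.34% lower, and those against TGF-β alone beside 13.3% and 11.4%. Each fit of the comparison with IL-3 that left out a library also called fewer genes over all those tested. A smaller list count there is to be read beside that fall. Some lists lost a larger share of their calls than all genes did, as the ribosomal protein genes did without IL-3 replicate 2.

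Several of the protease genes passed both tests. Mcpt1 stood at 0.501 CPM and 0 counts in the SCF libraries and at 2.54 and 27.2 CPM with TGF-β alone at 1 and 10 ng/mL, below all 4 libraries of the combination. The combination was higher than TGF-β alone by 3.74 on the log2 scale (adjusted p = 7.3e-06). Mcpt2 was at 21.0 and 21.4 CPM with SCF and at 604 and 3979 CPM with TGF-β alone, so the combination was higher than SCF by 7.64 (adjusted p = 6.74e-12) and than TGF-β by 1.45 (adjusted p = 1.86e-05). For Mcpt2 the single library of 10 ng/mL TGF-β alone lay within the range of the 4 combination libraries. It was below both combination libraries at 10 ng/mL (6719 and 4050 CPM). For Mcpt1 it lay below all 4. Tpsab1 was higher than under SCF alone by 3.81 and than under TGF-β alone by 3.30 (adjusted p = 9.2e-08 and 5.4e-07). Gzmb and Cpa3 lay between the single factors: Gzmb differed from SCF by -4.23 and from TGF-β by 1.94 (adjusted p = 7.5e-11 and 6.5e-05), and Cpa3 by -1.14 and 0.64 (adjusted p = 8.3e-07 and 0.00028).

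Col18a1, Grm6, Pla2g16 and Sytl2 also differed from both single factors. Col18a1, which encodes the collagen XVIII chain that releases endostatin, had 134, 201, 185 and 224 CPM with SCF and TGF-β, 12.5 and 27.1 CPM with SCF, 0 counts with TGF-β alone, and 0 and 0.702 CPM in IL-3. It differed from SCF (log2 difference 3.25, adjusted p = 4.8e-07) and, on 1 count in IL-3, from IL-3 (ratio 611, 95% counting interval 110 to 2.41e+04; adjusted p = 4.87e-09). Its fitted log2 change of 8.96 was 11.37 without IL-3 replicate 2 and 7.90 without IL-3 replicate 1. Grm6, a metabotropic glutamate receptor gene, had 83.6 to 101 CPM with SCF and TGF-β, against 3.63 and 4.91 CPM in IL-3 (log2 change 4.45 ± 0.28), and was higher than under SCF by 0.96 and than under TGF-β by 2.84 (adjusted p = 0.0018 and 9.1e-07). Pla2g16, a phospholipase gene, had 60.2 to 78.2 CPM against 2.07 and 2.81 CPM in IL-3 (log2 change 4.77 ± 0.30), with both differences from the single factors also past the test (2.10 from SCF and 1.33 from TGF-β). Sytl2, whose product tethers granules through Rab27, had 125 to 146 CPM against 16.1 and 25.3 CPM in IL-3 (log2 change 2.79 ± 0.20) and stood above SCF by 1.04 and above TGF-β by 2.64. Sytl2 was the 1 member of 20 tested exocytosis genes that was higher than in IL-3, and 4 were lower. Against SCF alone 1 was higher and 1 lower, beside 3.92% and 5.34% of all genes. Against IL-3 the counts were 2 higher and 2 lower without IL-3 replicate 1, 1 and 2 without IL-3 replicate 2, and 2 and 3 without the second combination library at 1 ng/mL.

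A further group differed from SCF alone without a called difference from TGF-β alone. Adgra1, an adhesion G protein-coupled receptor gene, had 30.3, 61.1, 100 and 100 CPM with SCF and TGF-β, 50.1 and 74.6 CPM with TGF-β alone, and 0 counts in IL-3, at least 80.4-fold higher than 3 counts in the IL-3 group (adjusted p = 1.66e-07). Its difference from TGF-β alone was 0.13 on the log2 scale (adjusted p = 0.73), and from SCF alone 7.58 (adjusted p = 4.8e-07). Mrgpra9, a Mas-related receptor gene, had 90.1 to 122 CPM with SCF and TGF-β, against 1.55 and 6.32 CPM in IL-3. Its log2 change of 4.87 ± 0.33 was 6.05 without IL-3 replicate 2 and 4.08 without IL-3 replicate 1, and it differed from SCF by 6.89 and from TGF-β by 0.44 (adjusted p = 2.1e-08 and 0.12). Itgae differed from SCF by 5.68 and from TGF-β by 0.68 (adjusted p = 2.4e-05 and 0.20).

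Skil and Smad7, which encode inhibitors of SMAD signalling, had the same pattern of calls. Skil encodes SnoN, a corepressor of SMADs, and had 65.7, 79.5, 107 and 105 CPM with SCF and TGF-β, against 11.9 and 15.4 CPM in IL-3 (log2 change 2.69 ± 0.20, adjusted p = 8.7e-08). Smad7, the inhibitory SMAD, had 12.2, 11.3, 28.1 and 21.7 CPM, against 2.59 and 4.91 CPM in IL-3 (log2 change 2.23 ± 0.39, adjusted p = 0.000465). Both were higher than under SCF alone (Skil by 3.69, adjusted p = 2.15e-08, and Smad7 by 2.33, adjusted p = 0.000704), and neither difference from TGF-β alone passed (Skil -0.39, adjusted p = 0.068, and Smad7 -0.76, adjusted p = 0.053). Over the whole list of TGF-β response genes, 4 of 18 tested members were higher and 2 lower than in IL-3, with a median of 0.19. The 2 lower members were not called without IL-3 replicate 2. Against SCF alone 4 members were higher and 3 lower, beside 3.92% and 5.34% of all genes. Against TGF-β alone 3 were higher and 3 lower, beside 13.3% and 11.4% of all genes.

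The third pattern was a difference from TGF-β alone without a called difference from SCF. Cd68, a lysosomal membrane glycoprotein gene, had 40.0, 70.0, 35.3 and 73.8 CPM with SCF and TGF-β, 50.1 and 65.5 CPM with SCF, 9.33 and 5.44 CPM with TGF-β alone, and 1.55 and 4.91 CPM in IL-3. The log2 change from IL-3 was 4.14 ± 0.48 (5.05 without IL-3 replicate 2 and 3.45 without IL-3 replicate 1), and the difference from SCF was -0.09 (adjusted p = 0.90). Tnf, the tumour necrosis factor gene, had 111 to 143 CPM with SCF and TGF-β, against 43.5 and 23.9 CPM in IL-3 and 4.24 and 16.3 CPM with TGF-β alone. It rose by 1.88 ± 0.24 over IL-3 and stood 3.92 above TGF-β alone (adjusted p = 1.3e-06).

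**Figure D3:**
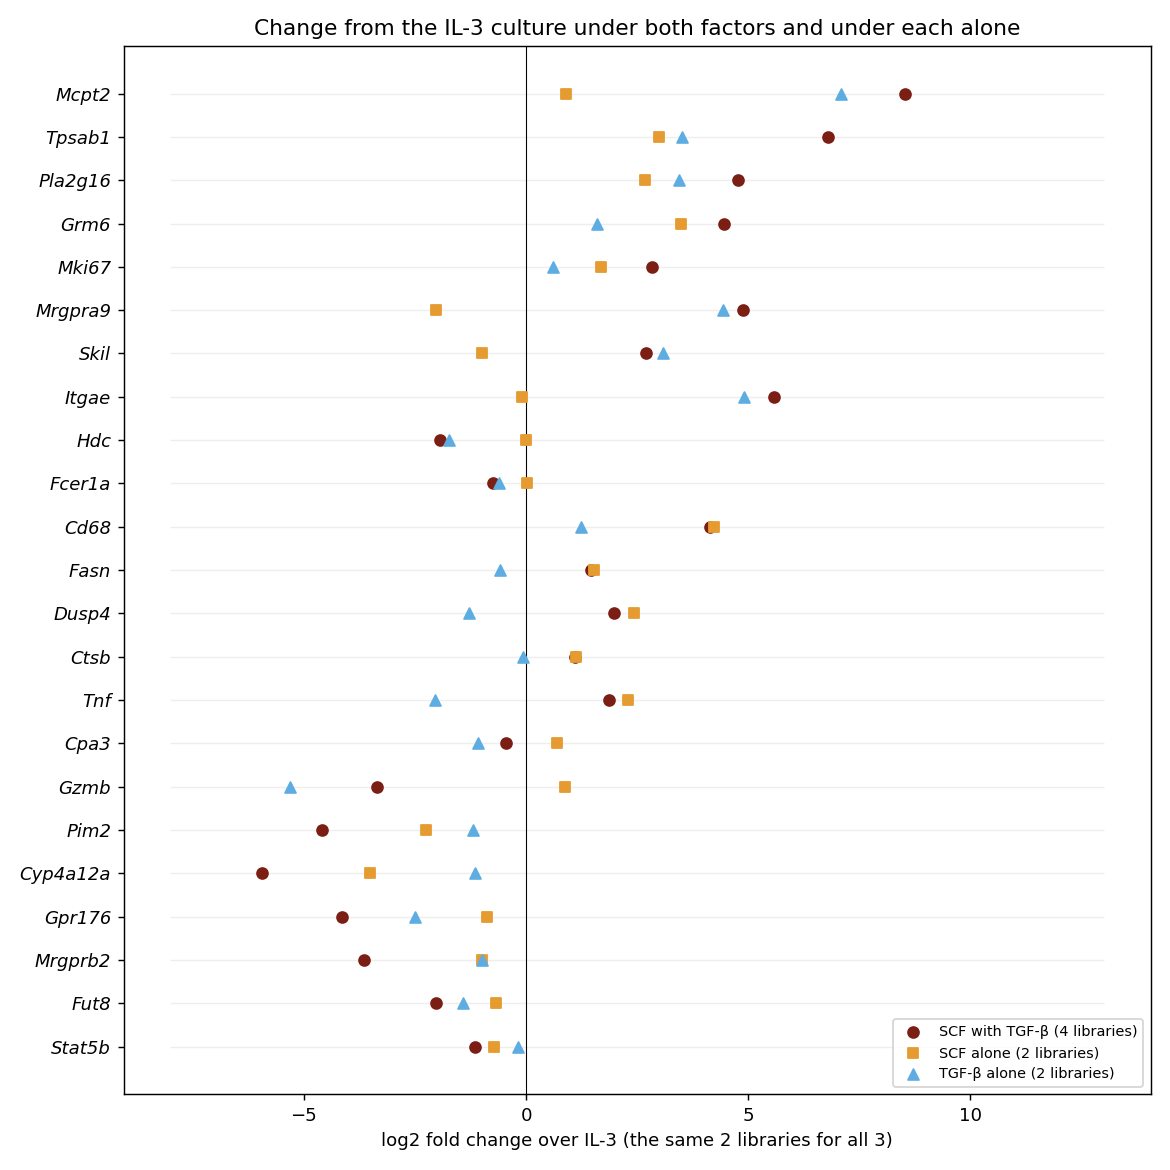
The x axis gives the log2 fold change over the same 2 IL-3 libraries under SCF with TGF-β (circles, 4 libraries), SCF alone (squares, 2 libraries) and TGF-β alone (triangles, 2 libraries) for 23 genes. Mcpt2, Tpsab1 and Mki67 have the circle beyond both others on the right, Mrgpra9, Skil and Itgae have circle and triangle together, Cd68, Fasn and Ctsb have circle and square together, and Pim2, Cyp4a12a and Mrgprb2 have the circle beyond both on the left.

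On the falling side, fatty acid hydroxylase genes were among the 15 largest changes. Cyp4a12a had 14.3, 7.12, 7.15 and 3.80 CPM with SCF and TGF-β, against 409 and 577 CPM in IL-3 (log2 change -5.94 ± 0.27, adjusted p = 1.99e-10), with 25.2 to 59.1 CPM under SCF and 179 to 278 CPM under TGF-β alone. Its neighbour Cyp4a12b had 1.09 to 3.37 CPM, against 172 and 215 CPM in IL-3 (log2 change -6.26 ± 0.26). These paralogs may share reads. Both were lower than under SCF alone and lower than under TGF-β alone (log2 differences of -2.43 and -4.80 for Cyp4a12a and -2.22 and -4.76 for Cyp4a12b).

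Pim2, a survival kinase gene regulated by STAT5, had 2.68 to 6.74 CPM with SCF and TGF-β, against 88.6 and 118 CPM in IL-3 (log2 change -4.59 ± 0.29, adjusted p = 1.3e-08). Pigz, a mannosyltransferase gene of glycolipid anchors, had 0.594 to 3.37 CPM, against 93.8 and 135 CPM in IL-3; its log2 change of -5.72 was -6.60 without the first combination library at 1 ng/mL. Asb2, a ubiquitin ligase adaptor gene, had 1 count in the 4 libraries together, against 26.4 and 35.8 CPM in IL-3 (ratio 0.00404, 95% counting interval 0.000101 to 0.0230), and its fitted log2 change of -7.69 was -8.70 without the library that held the count, the first combination library at 1 ng/mL. Gpr176, an orphan receptor gene, had 4.02 to 9.69 CPM, against 128 and 133 CPM in IL-3 (log2 change -4.14 ± 0.21). Pim2, Pigz, Asb2 and Gpr176 were each lower in the combination than under either factor alone.

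Timp3, an inhibitor of matrix metalloproteinases, fell to 1.09 to 7.16 CPM with SCF and TGF-β, against 72.5 and 114 CPM in IL-3; its log2 change of -4.12 was -5.00 without the first combination library at 10 ng/mL. It stood at 3.78 and 11.0 CPM under SCF alone, and the difference from SCF was -0.55 (adjusted p = 0.60).

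Genes of cell division rose as a block. Of the S phase genes, 28 of 30 tested members were higher than in IL-3, with a median log2 change of 1.66, and of the mitosis genes 29 of 30 were higher, with a median of 2.48, beside 11.0% of all genes higher. Mki67, the proliferation antigen, had 118, 137, 127 and 122 CPM with SCF and TGF-β, against 23.3 and 10.5 CPM in IL-3 (log2 change 2.83 ± 0.23, adjusted p = 1.66e-07). The groups did not overlap. Ccnb2, encoding a B-type cyclin, had 152 to 185 CPM, against 29.0 and 12.6 CPM in IL-3 (log2 change 2.97 ± 0.22). The kinase gene Aurkb rose by 2.63 ± 0.26, the ribonucleotide reductase gene Rrm2 by 2.66 ± 0.29, the thymidylate synthase gene Tyms by 1.94 ± 0.19 and the helicase subunit gene Mcm6 by 1.30 ± 0.14. IL-3 replicate 2 was the lower of the IL-3 pair for each of these 6 genes, and without IL-3 replicate 1 the log2 changes were 3.58 for Mki67, 3.75 for Ccnb2, 3.34 for Aurkb and 3.78 for Rrm2. Pttg1, encoding securin, was the mitosis gene that was not called (log2 change -0.49 ± 0.25, adjusted p = 0.183).

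Against the single factors, 20 of the 30 mitosis genes were higher than under SCF alone and 29 higher than under TGF-β alone, beside 3.92% and 13.3% of all genes, with medians of 0.80 and 2.12. For S phase genes the counts were 13 and 27 of 30. Mki67 was at 51.6 and 63.7 CPM with SCF and at 17.0 and 42.0 CPM with TGF-β alone, and the combination exceeded them by 1.13 and 2.23 on the log2 scale (adjusted p = 0.00063 and 5.4e-06). Among the G1 regulators 4 of 14 tested members were higher and 2 lower. Without IL-3 replicate 2 a single higher member was left, and the counts were 3 and 1 without the second library of either dose of the combination. Rbl1, which encodes the pocket protein p107, had 26.1 to 44.2 CPM, against 9.85 and 4.91 CPM in IL-3 (log2 change 2.15 ± 0.32, and 2.79 without IL-3 replicate 1). Rb1, encoding the retinoblastoma protein, had 134 to 197 CPM against 255 and 325 CPM in IL-3 (log2 change -0.81 ± 0.17, adjusted p = 0.00217, but 0.0818 without IL-3 replicate 2).

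Lipid and protein synthesis genes rose in large part and by small folds. Of the sterol synthesis genes 17 of 24 tested members were higher, with a median log2 change of 0.93, of the fatty acid synthesis genes 8 of 11 (median 0.87), and of the cytosolic ribosomal protein genes 43 of 73 (median 0.46). Without IL-3 replicate 2 these counts were 8, 5 and 8, and 644 of 11329 genes tested were higher in all. Fasn, encoding fatty acid synthase, had 242, 237, 210 and 215 CPM with SCF and TGF-β, against 88.1 and 73.7 CPM in IL-3 (log2 change 1.47 ± 0.14, adjusted p = 1.12e-06). Cyp51, a demethylase gene of the sterol pathway, had 130 to 152 CPM, against 46.6 and 40.7 CPM in IL-3 (log2 change 1.64 ± 0.17). Srebf2, whose product drives this pathway, was at 97.2 to 108 CPM against 91.2 and 98.2 CPM in IL-3 and did not pass (adjusted p = 0.578).

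The same lists were compared with the single factors. Fasn had 220 and 253 CPM with SCF and 45.0 and 66.0 CPM with TGF-β alone, and the combination differed by -0.07 from SCF (adjusted p = 0.84) and by 2.05 from TGF-β (adjusted p = 3e-07). Over the sterol list, 21 of 24 members were higher than under TGF-β alone, beside 13.3% of all genes, with a median of 1.55. The median against SCF was -0.21, with 2 members lower, beside 5.34% of all genes. Ribosomal protein genes had medians of 0.59 against TGF-β alone, 55 of 73 higher, and -0.10 against SCF. Respiratory chain genes were called higher in 6 of 56 (median 0.23), beside 11.0% of all genes, and in 2 of 56 without IL-3 replicate 2 or without the second combination library at 1 ng/mL, and in 3 without either combination library at 10 ng/mL.

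**Figure D4:**
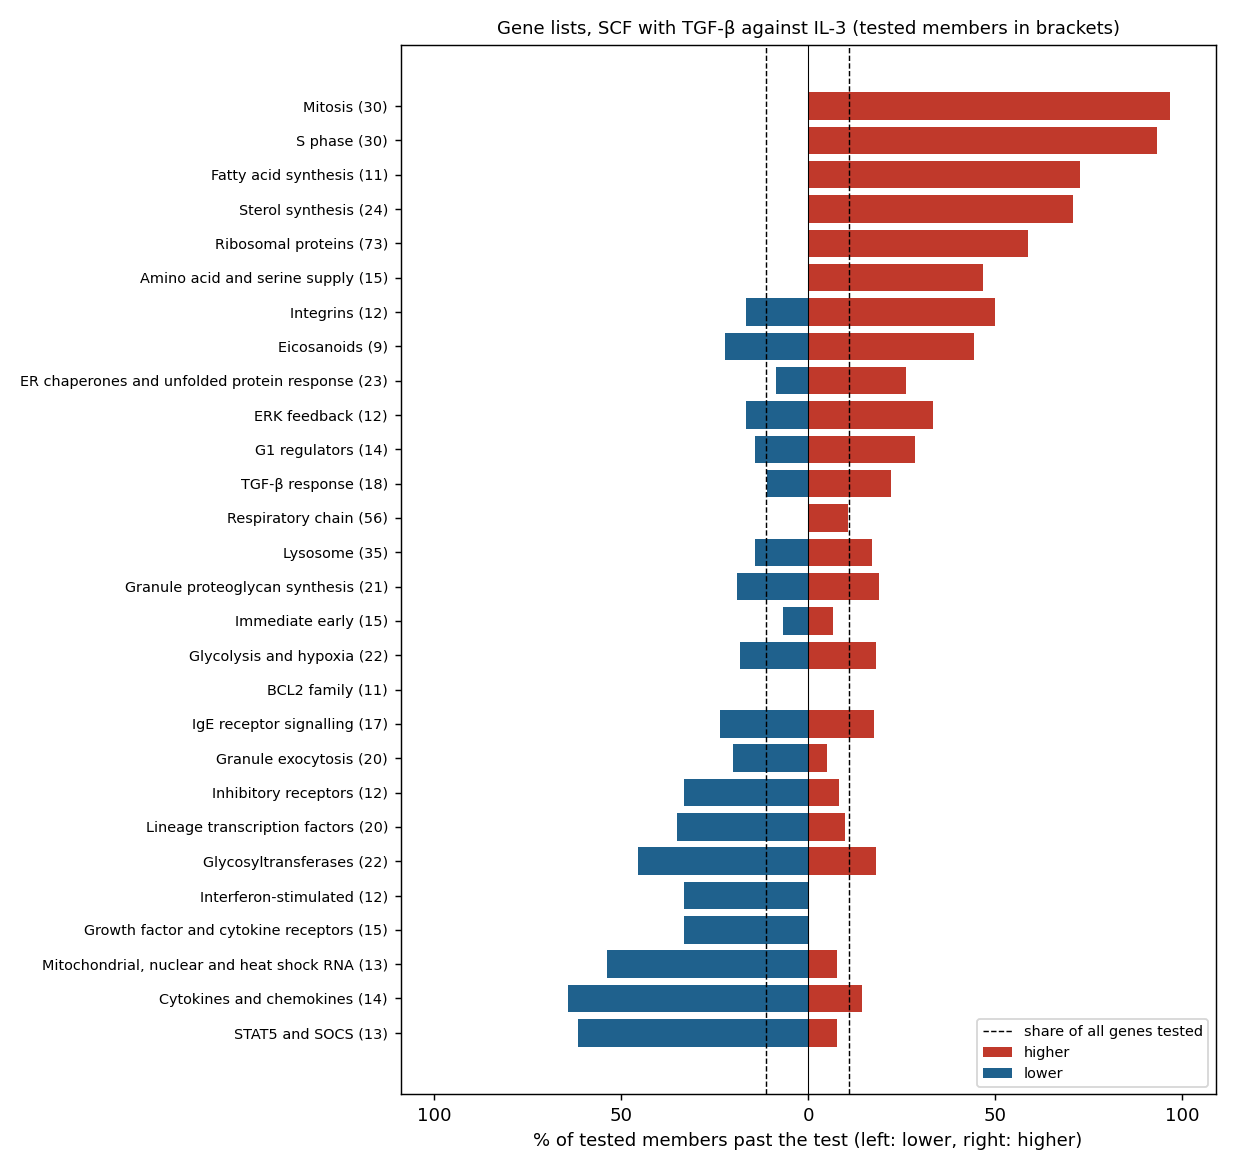
Bars give the percent of the tested members of each gene list (number in brackets) that were higher (right, red) or lower (left, blue) with SCF and TGF-β than in IL-3 at an adjusted p under 0.05; dashed lines mark the shares over all genes tested, 11.0% higher and 11.2% lower. Mitosis, S phase, fatty acid and sterol synthesis and ribosomal protein genes stand at the top, and cytokine and STAT5 genes at the bottom.

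Of 6 tested genes of amine synthesis, storage and breakdown, Ddc was higher than in IL-3 and 3 were lower, with 2 lower without either IL-3 library. Hdc, the histidine decarboxylase that makes histamine, had 27.4, 22.6, 23.7 and 35.3 CPM with SCF and TGF-β, against 98.5 and 110 CPM in IL-3 (log2 change -1.94 ± 0.19, adjusted p = 1.7e-06). It had 123 and 82.6 CPM with SCF and 24.6 and 39.6 CPM with TGF-β alone, and the combination differed from SCF by -1.93 and from TGF-β by -0.20 on the log2 scale (adjusted p = 3.9e-06 and 0.59). Slc18a2, the transporter that loads amines into granules, had 986 to 1155 CPM, against 1745 and 1735 CPM in IL-3 (log2 change -0.72 ± 0.11). Ddc, the decarboxylase that completes serotonin synthesis, had 102, 123, 119 and 120 CPM, against 16.1 CPM in each IL-3 library (log2 change 2.84 ± 0.23, adjusted p = 1.32e-07), and was higher than under SCF by 0.93 and than under TGF-β by 1.61. Tph1, the first enzyme of that route, had 5261 to 5771 CPM against 5969 and 6033 CPM in IL-3. All 4 Tph1 values were below IL-3, yet the difference did not pass (log2 change -0.13 ± 0.10, adjusted p = 0.350). Slc6a4, the serotonin transporter gene, had 1.78 to 14.3 CPM against 2.59 and 2.81 CPM in IL-3 and did not pass (adjusted p = 0.439).

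Granule matrix, lysosome and release genes were mixed. Srgn, the serglycin core protein that holds proteases in the granule, had 2706, 2599, 2295 and 2446 CPM, against 3146 and 2953 CPM in IL-3 (log2 change -0.28 ± 0.10, adjusted p = 0.0438); this call was lost without any 1 of the 6 libraries, with adjusted p between 0.0766 and 0.224. Srgn was chosen after its values were seen. Ndst2, which sulphates heparin, fell by 1.14 ± 0.17 (191 to 321 CPM, against 596 and 455 CPM in IL-3), and Chsy1, which builds chondroitin chains, rose by 1.01 ± 0.20 (244 to 329 CPM, against 108 and 185 CPM in IL-3). Among the lysosome genes Ctsb, encoding cathepsin B, had 574 to 629 CPM against 274 and 289 CPM in IL-3 (log2 change 1.11 ± 0.12). Grn, encoding progranulin, had 516 to 547 CPM against 250 and 264 CPM (log2 change 1.05 ± 0.12), and the tetraspanin gene Cd63 had 3303 to 3667 CPM against 1751 and 1651 CPM (log2 change 1.00 ± 0.10). Each of these 3 genes was above IL-3 in all 4 libraries. Vamp2, a vesicle fusion gene, had 25.9 to 28.5 CPM, against 54.4 and 49.1 CPM in IL-3 (log2 change -0.96 ± 0.18).

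Receptors for growth factors and IgE were lower or did not pass the test. Kit had 3172, 3249, 3092 and 3299 CPM with SCF and TGF-β, against 4569 and 5072 CPM in IL-3 (log2 change -0.59 ± 0.10, adjusted p = 0.000353). Fcer1a, the IgE-binding chain, had 7168, 6277, 6016 and 5487 CPM, against 10479 and 10385 CPM in IL-3 (log2 change -0.75 ± 0.10, adjusted p = 2.14e-05). Ms4a2, the β chain of the same receptor, had 1345 to 1482 CPM against 1416 and 1519 CPM in IL-3, overlapping ranges (log2 change -0.04 ± 0.10, adjusted p = 0.832). Il2rg, the common γ chain, fell by 1.17 ± 0.18, while Csf2rb, the shared β chain of the IL-3 receptor family (log2 change -0.06 ± 0.10, adjusted p = 0.714), and Il1rl1, the IL-33 receptor (log2 change -0.09 ± 0.11, adjusted p = 0.593), did not pass. Of 15 growth factor and cytokine receptor genes tested, 5 were lower, and 2 without IL-3 replicate 2.

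The signalling adaptor Lat, which couples the IgE receptor to phospholipase C, had 398, 490, 425 and 453 CPM, against 179 and 216 CPM in IL-3 (log2 change 1.16 ± 0.14, adjusted p = 1.3e-05). Plcg1, one of the phospholipases it recruits, had 78.3 to 110 CPM, against 190 and 174 CPM (log2 change -0.94 ± 0.16, adjusted p = 0.000291). Of 5 tested receptor genes for secretagogues, complement and related ligands, 1 was higher and 2 were lower. The lower count was 1 without IL-3 replicate 2, without the first combination library at 1 ng/mL or without the second at 10 ng/mL. Mrgprb2, the receptor for basic secretagogues of connective tissue mast cells, had 10.1, 3.56, 7.15 and 8.14 CPM, against 77.2 and 112 CPM in IL-3 (log2 change -3.65 ± 0.29, adjusted p = 1.51e-07). Under SCF alone it had 31.5 and 61.6 CPM and under TGF-β alone 38.1 and 59.4 CPM, and the log2 differences of the combination from them were -2.65 and -2.66 (adjusted p = 2.6e-05 and 3.2e-05). C3ar1, the receptor for complement C3a, had 208 to 240 CPM against 86.0 and 112 CPM (log2 change 1.18 ± 0.15). C5ar1, the receptor for complement C5a, had 1.26, 4.75, 2.68 and 1.09 CPM against 5.18 and 11.2 CPM in IL-3 (log2 change -1.74 ± 0.57, adjusted p = 0.0376).

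Inhibitory receptors were lower in 4 of 12 tested members and higher in 1; without IL-3 replicate 2 the lower count was 2. Cd300a fell to 245 to 337 CPM, against 608 and 668 CPM in IL-3 (log2 change -1.16 ± 0.12). Fcgr2b, the inhibitory receptor for IgG, had 40.7 to 53.5 CPM against 96.4 and 112 CPM (log2 change -1.12 ± 0.15). Cd244a, an immunoreceptor of the SLAM family, was the member that rose, at 231 to 325 CPM against 99.0 and 92.6 CPM (log2 change 1.57 ± 0.15, adjusted p = 1.32e-06).

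Lineage transcription factors were lower in 7 of 20 tested members and higher in 2; the counts were 2 lower and 1 higher without IL-3 replicate 2, and the lower count was 4 without IL-3 replicate 1 or without the first combination library at 10 ng/mL. Runx1 had 124 to 139 CPM, against 231 and 280 CPM in IL-3 (log2 change -0.92 ± 0.13), while its relative Runx3, a mediator of TGF-β responses in lymphocytes, had 158, 162, 167 and 186 CPM against 95.3 and 106 CPM (log2 change 0.74 ± 0.14, adjusted p = 0.000788). Mitf and Tal1, regulators of mast cell and haematopoietic genes, each fell by 0.61, with adjusted p of 0.123 for Mitf without IL-3 replicate 1 and 0.133 for Tal1 without IL-3 replicate 2. Myc rose by 0.61 ± 0.15, with an adjusted p of 0.157 without IL-3 replicate 2. Gata2, a factor mast cells need, had 544 to 812 CPM against 749 and 775 CPM and did not pass (adjusted p = 0.399).

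Cytokine genes were lower in 9 of 14 tested members and higher in 2, with a median of -1.13; without IL-3 replicate 1 the counts were 6 and 1. Il4 had 6.32, 8.90, 7.15 and 6.52 CPM with SCF and TGF-β, against 38.9 and 38.6 CPM in IL-3 (log2 change -2.43 ± 0.26, adjusted p = 3.79e-06). Ccl2, the monocyte chemokine, had 549, 525, 361 and 445 CPM against 1094 and 932 CPM (log2 change -1.12 ± 0.12, adjusted p = 2.17e-06). It had 1336 and 1410 CPM with SCF alone and 316 and 381 CPM with TGF-β alone, so the combination lay between them. Osm, encoding oncostatin M, fell by 1.13 ± 0.18, and Csf1, encoding a macrophage growth factor, by 1.71 ± 0.30.

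Genes tied to IL-3 and STAT5 signalling were mostly lower. Of 13 tested members of that list 8 were lower and 1 higher, with a median of -0.90; the higher member was not called without IL-3 replicate 1 or 2 or without the first library of either dose, and the lower count was 7 to 8 in each of these. Pim1 had 64.8, 44.5, 53.2 and 44.0 CPM against 149 and 155 CPM in IL-3 (log2 change -1.54 ± 0.17, adjusted p = 5.44e-06). Socs1, a feedback inhibitor, had 48.3 to 69.9 CPM against 147 and 154 CPM (log2 change -1.38 ± 0.16). Stat5b itself fell by 1.15 ± 0.16 and Stat5a by 0.90 ± 0.15. Cish, another feedback gene of the pathway, had 570 to 700 CPM against 604 and 738 CPM and did not pass (log2 change -0.10 ± 0.12, adjusted p = 0.635).

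ERK feedback genes rose in 4 of 12 tested members and fell in 2. Dusp4, a phosphatase of ERK, had 59.8, 63.5, 48.7 and 61.4 CPM against 14.5 and 14.7 CPM in IL-3 (log2 change 1.99 ± 0.21, adjusted p = 3.2e-06). Etv5, an ERK-induced transcription factor, had 29.5 to 34.9 CPM against 9.85 and 7.02 CPM (log2 change 1.89 ± 0.27), and Spred1, an inhibitor of the pathway, rose by 1.38 ± 0.19. Dusp1, a phosphatase induced by stress, had 20.2 to 29.9 CPM against 110 and 61.0 CPM (log2 change -1.81 ± 0.24). Jun rose by 1.15 ± 0.23, with an adjusted p of 0.0627 without IL-3 replicate 2.

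Enzymes of lipid mediators rose in 4 of 9 tested members and fell in 2, and the lower count was 1 without either IL-3 library, without the first combination library at 1 ng/mL or without the second at 10 ng/mL. Ptgs1, encoding cyclooxygenase-1, had 368, 412, 412 and 419 CPM against 134 and 194 CPM in IL-3 (log2 change 1.30 ± 0.15, adjusted p = 6.4e-06), and was higher than under SCF by 0.91 and than under TGF-β by 0.92. Alox5ap, the partner of 5-lipoxygenase, had 1296 to 1727 CPM against 814 and 800 CPM (log2 change 0.88 ± 0.12), and the phospholipase gene Pla2g4a rose by 0.85 ± 0.15 and the prostaglandin D synthase gene Hpgds by 0.68 ± 0.15. Alox5 did not pass (log2 change -0.06 ± 0.11, adjusted p = 0.748).

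Integrin and glycan genes changed too. Of 12 integrin genes tested 6 were higher and 2 lower. Itgb1 had 75.5 to 97.0 CPM against 41.5 and 42.8 CPM in IL-3 (log2 change 1.00 ± 0.17), and Itga7, a laminin receptor chain, had 7.12 to 33.5 CPM against 1.04 CPM and 0 counts (ratio 30.1, 95% counting interval 8.18 to 251; adjusted p = 0.000488). Its fitted log2 change of 4.63 was 7.84 without IL-3 replicate 1 and 3.89 without IL-3 replicate 2. Itgb2, the leukocyte β2 chain, had 21.0 to 55.6 CPM against 103 and 64.6 CPM (log2 change -1.50 ± 0.26). Glycosyltransferase genes were lower in 10 of 22 and higher in 4. The lower count was 3 without IL-3 replicate 1, 4 without IL-3 replicate 2, 6 without the second combination library at 1 ng/mL, and 5 and 7 without the first and the second at 10 ng/mL, and in these fits 1 to 3 members were higher. Fut8, the core fucosyltransferase, had 62.4 to 112 CPM against 358 and 266 CPM (log2 change -2.02 ± 0.17), and St3gal1, a sialyltransferase, 10.5 to 14.7 CPM against 56.0 and 47.7 CPM (log2 change -2.06 ± 0.22). Mgat5, which branches N-glycans, had 43.0 to 54.8 CPM against 19.2 and 18.2 CPM (log2 change 1.38 ± 0.21).

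Genes of amino acid uptake and serine metabolism were higher in 7 of 15 tested members, and in 2 without IL-3 replicate 2. Slc38a2, an amino acid transporter gene, had 97.7, 111, 113 and 111 CPM with SCF and TGF-β, against 56.0 and 41.4 CPM in IL-3 (log2 change 1.13 ± 0.16, adjusted p = 6.55e-05). Psat1, an enzyme gene of serine synthesis, had 31.2 to 57.6 CPM against 19.2 and 9.82 CPM (log2 change 1.53 ± 0.33). Interferon response genes were lower in 4 of 12 tested members, and in 2 without IL-3 replicate 2. Usp18, a brake on interferon receptor signalling, had 18.9, 17.8, 12.5 and 20.1 CPM with SCF and TGF-β, against 50.8 and 44.9 CPM in IL-3 (log2 change -1.48 ± 0.21, adjusted p = 6.5e-05), and all 4 values were below IL-3.

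In 3 other lists genes were called in both directions, beside 11.0% of all genes higher and 11.2% lower. IgE receptor signalling genes were higher in 3 and lower in 4 of 17 tested members (1 and 5 without IL-3 replicate 1, 2 and 2 without IL-3 replicate 2), and lysosome genes in 6 and 5 of 35, with 2 lower without either IL-3 library or without the second combination library at 1 ng/mL and 3 lower without the second at 10 ng/mL. Chaperone and unfolded protein response genes were higher in 6 and lower in 2 of 23, and no member was called in edgeR's test without IL-3 replicate 2. None of the 11 tested genes of the BCL2 family, which controls cell death, was called in edgeR's test, and their median log2 change was 0.04.

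Markers of other cell types and of RNA quality were set beside these results. Neutrophil, lymphocyte and fibroblast markers summed to at most 1.63 CPM with SCF and TGF-β and at most 2.81 CPM in IL-3. The 12 macrophage markers summed to 51.8 to 97.9 CPM with SCF and TGF-β, against 35.1 and 37.8 CPM in IL-3, with C1qa, C1qb, C1qc and Vsig4 among those at 0 in all 6 libraries; Cd68 was higher and Lyz2 lower (log2 change -2.90 ± 0.46, and -3.55 without the second combination library at 1 ng/mL). The 9 eosinophil markers summed to 5.43 to 10.5 CPM with SCF and TGF-β, against 24.4 and 31.6 CPM in IL-3, with Prg2, Prg3, Epx, Ear1, Ear2 and Ear6 at 0 in all 6. The summed ranges of the other lists met or overlapped: 1222 to 1489 CPM with SCF and TGF-β and 1305 to 1456 CPM in IL-3 for basophil markers, which include the mast cell genes Gata2 and Il3ra, 14.3 to 29.5 CPM and 11.2 to 17.1 CPM for dendritic markers, and 1754 to 2125 CPM and 1796 to 2162 CPM for erythroid and platelet markers, with Hba-a1, Pf4 and Ppbp at 0. Of 13 mitochondrial, nuclear and heat shock transcripts 7 were lower and 1 higher, among them the nuclear RNAs Malat1 (log2 change -0.80 ± 0.10) and Neat1 (-0.98 ± 0.11); without single libraries the lower count was 4 (either IL-3 library), 5 (the first combination library at 10 ng/mL) or 6 (the second of either dose). Satellite repeat loci took 3.41% to 5.48% of gene counts with SCF and TGF-β, against 5.93% and 9.39% in IL-3. With ribosomal RNA and satellite loci taken out, 2489 genes were called. For the other differences, their part in the gene results was not tested.

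At each dose on its own, 1769 genes (15.7%) differed from IL-3 in the combination at 1 ng/mL, 954 higher (8.48%) and 815 lower (7.25%). At 10 ng/mL 2099 genes (18.7%) differed, 1090 higher (9.69%) and 1009 lower (8.97%). The first count was 1036 without replicate 2 of its own group and 896 without IL-3 replicate 2. The second was 1367 and 1299 without replicates 1 and 2 of its own group, and 1167 without IL-3 replicate 2. These comparisons share the IL-3 libraries. Tested against each other without them, the doses differed in 2 genes (0.0178%), 1 in each direction (0.00889% each), with 313 genes at an unadjusted p under 0.05 and 0 genes called by DESeq2 or limma-voom. The count was also 0 without the first combination library at either dose, 2 without the second at 1 ng/mL, and 5 without the second at 10 ng/mL.

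In the fit of all 10 libraries the 2 genes were Id3 and Gzmb. The genes called without the second combination library at 1 ng/mL were all higher at 10 ng/mL, so Gzmb was not among them. Id3 encodes an inhibitor of helix-loop-helix factors and is a target of SMADs. It had 328 and 167 CPM in the combination at 10 ng/mL and 47.2 and 86.1 CPM at 1 ng/mL, against 72.5 and 116 CPM in IL-3. The change from IL-3 was 1.42 ± 0.29 at 10 ng/mL (adjusted p = 0.0023) and -0.51 ± 0.32 at 1 ng/mL (adjusted p = 0.316). The log2 change of Gzmb from IL-3 was -4.13 ± 0.23 at 10 ng/mL and -2.59 ± 0.21 at 1 ng/mL. Mcpt1, Mcpt2, Itgae, Adgra1, Skil and Smad7 had log2 differences of 1.08, 0.69, 1.50, 1.17, 0.55 and 1.08 between the higher and the lower dose, with unadjusted p of 0.000518, 0.00151, 0.000702, 0.000332, 0.0045 and 0.00333, and did not pass after adjustment. Mki67 (-0.03 ± 0.19), Grm6 (-0.01 ± 0.19) and Tnf (0.02 ± 0.23) gave differences near 0.

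**Figure D5:**
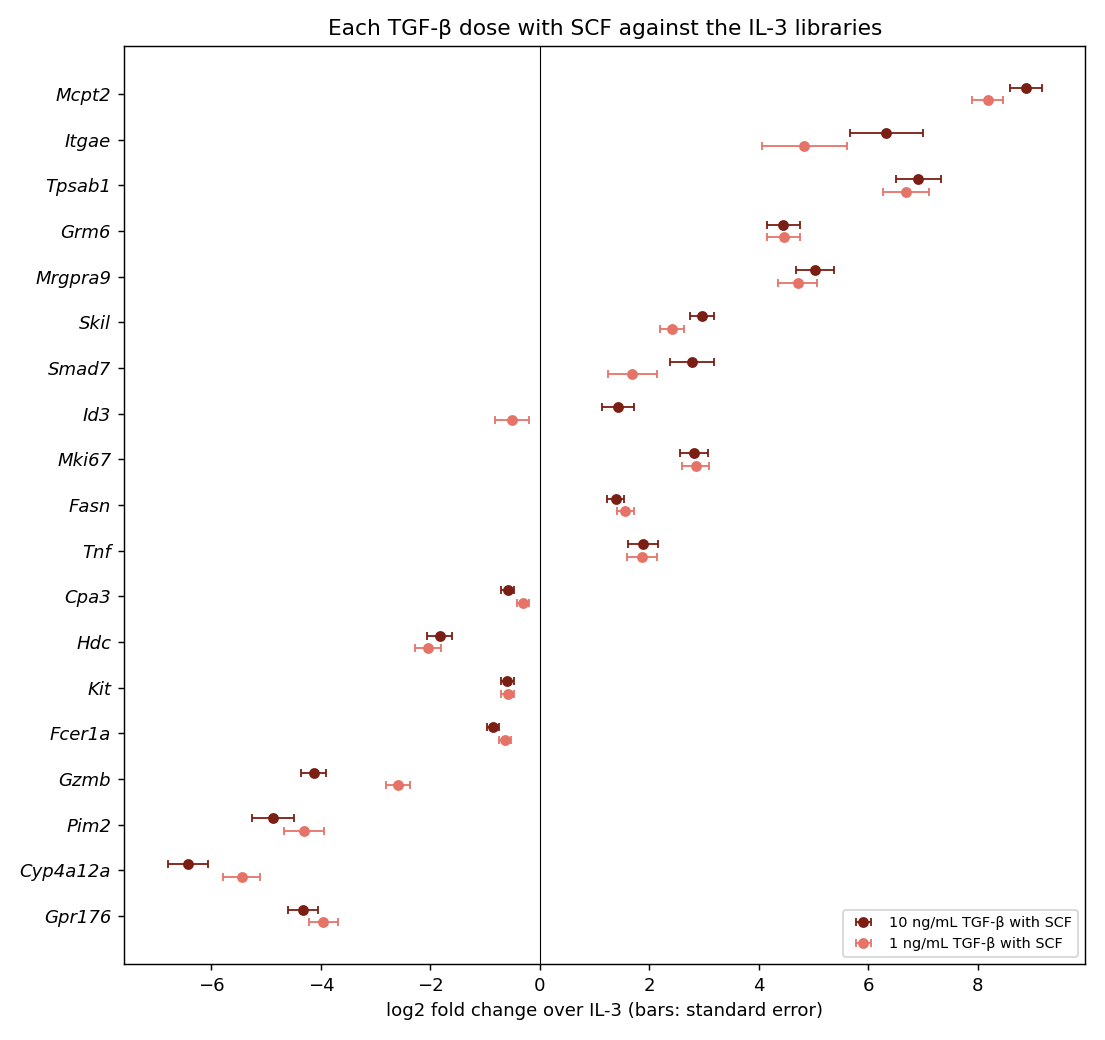
Points are log2 fold changes over IL-3 in the combination at 10 ng/mL (dark) or 1 ng/mL TGF-β (light), 2 libraries each against the same 2 IL-3 libraries, and bars are standard errors. Id3 lies at 1.42 for 10 ng/mL and -0.51 for 1 ng/mL and Gzmb at -4.13 and -2.59, while Mki67, Grm6 and Tnf nearly coincide.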

How the data were processed

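SmartSeq2 cDNA, made from full-length transcripts by template switching, was built into Nextera XT libraries and sequenced in pairs, per the labels' protocols, which name no molecular identifiers. STAR, HTSeq, DESeq2, GRCm38 and mm10 are named in the submitters' processing notes, and neither versions nor the annotation or strand setting are stated there. The deposited table holds the authors' counts of reads for 49671 gene rows and 5 rows that name no gene. The 5 rows, 74.0% to 80.1% of what was counted in the 6 libraries, were left out.

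A model with 6 group means was fitted to the counts of all 10 libraries with edgeR 4.0.16 in R 4.3.3 (TMM, filterByExpr, quasi-likelihood F test, 4 residual degrees of freedom), and kept 11247 genes. In each of 6 comparisons a gene was called if its Benjamini-Hochberg adjusted p was under 0.05. The 2 TGF-β alone groups, with 1 library each, took their spread from the others. A group at 0 was set to 3 counts, and with 1 to 3 counts a pooled ratio is given. Such floors and intervals cover counting error only. The procedure was tested on simulated counts. Replicates differed by more than counting error (chi-square per gene 3.44 to 4.51), so none was counted as a copy.

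The libraries, the 41 gene lists (759 genes, 616 tested) and the tests were chosen with earlier results of these data known. Genes named are anchors, the 15 largest rises and falls among called genes with at least 20 CPM on a side and groups apart, and up to 6 called and 4 uncalled members of a list, of which a subset is given. Alternatives were DESeq2 1.42.0 (size factors, Wald test), limma-voom (limma 3.58.1), no filter, a filter of 10 CPM, a 2-fold threshold, the compared groups alone, both doses as 1 group, a replicate block and each library left out in turn. Fits without ribosomal RNA and satellite loci and without the TGF-β alone libraries were added after the data were seen. Some results are not reported here.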

Additional observations from a re-analysis of the deposited data

Results flagged for a closer look

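Id3 and Gzmb had effects against IL-3 that differed between the TGF-β doses by the direct test of 10 against 1 ng/mL with SCF. For Id3 the log2 difference was 1.93 (SE 0.30, adjusted p = 0.0349, edgeR's quasi-likelihood test), with 328 and 167 CPM at 10 ng/mL and 47.2 and 86.1 CPM at 1 ng/mL. For Gzmb it was -1.54 (SE 0.23, adjusted p = 0.0349), with 43.4 and 67.3 CPM at 10 ng/mL and 149 and 172 CPM at 1 ng/mL. In both genes the 2 libraries of each dose did not overlap with those of the other. Both genes were picked by the test on these same libraries, so this adds no support to it.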

How the results depend on the processing

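Counts of called genes moved between settings. In the main comparison the share of called genes that were higher stayed between 46.9% and 57.5%. Against TGF-β alone it was 54% in the main fit and 47.4% with limma-voom, so the larger side changed. DESeq2's Wald test called 1379 genes for SCF with TGF-β against IL-3, 946 and 1077 at 1 and 10 ng/mL, 0 between the doses, 532 against SCF and 1518 against TGF-β alone. A 2-fold threshold (glmTreat) left 416, 288, 377, 0, 117 and 247 in the same order. Leaving out 1 library in turn gave 1308 to 2363 genes for the main comparison, 896 to 1414 at 1 ng/mL, 1167 to 1541 at 10 ng/mL, 0 to 5 between the doses, 516 to 943 against SCF and 1278 to 2738 against TGF-β alone. Of the 1308 genes called without IL-3 replicate 2, 1268 were among the 2499. Between the doses limma-voom, the filter of 10 CPM in at least 2 libraries and the fit of only the groups compared called 0 genes each, and no filter called 8; the cause was not tested. A lone library left in a group was assumed to vary like the other groups. Without a library of TGF-β alone, only the other dose was left on that side of the comparison.

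The replicate numbers were not taken as pairs: 4 of the 6 groups have 2 libraries and the others 1, the labels tie them to nothing shared, and the correlations of same-numbered deviations ran from -0.003 to 0.231. With a replicate block the counts were 2966, 2279, 2538, 5, 1453 and 3282, and all 2499 genes of the main comparison were called. Respiratory chain genes were then higher in 17 of 56 members, beside 1480 of 11247 genes.

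Of the genes named, those without a called change that turned sign without IL-3 replicate 2 were Ms4a2 (range over single libraries left out -0.08 to 0.01), Csf2rb (-0.11 to 0.00), Alox5 (-0.16 to 0.06) and Cish (-0.23 to 0.05). Limits: 2 IL-3 libraries carry all comparisons with IL-3, 1 library stands for each dose of TGF-β alone, and genes under about 2 CPM on a side rest on 3 counts or fewer.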
